A study of Mus musculus with 4 samples.

Results

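The 50 genes described here act in G2 phase and mitosis, and they were followed by TTchem-seq, a method for newly made RNA, in wild-type thymocytes and in thymocytes with a conditional Tox4 knockout. They are the members of a fixed list of cyclins, kinases, checkpoint proteins, kinetochore proteins, kinesins, cytokinesis factors and chromosome proteins, looked up by symbol among the 24984 genes of the fragment count table. All 50 were found. All 50 also passed the filter on low values, a mean of at least 1 CPM (fragments on a gene, scaled by the total of its library) over the 4 libraries, as did 11625 genes of the table. The question was whether the transcriptional output of these genes changed upon Tox4 loss, and how far the answer rests on each library.

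Genes of this kind are transcribed in waves. In resting cells and in G1 they are held silent by the DREAM repressor complex, which sits on a promoter element called the cell cycle genes homology region (CHR), and in G2 they are switched on by B-Myb and FoxM1 together with NF-Y, which binds CCAAT boxes. Their products condense the chromosomes, build the spindle, hold anaphase back until every kinetochore is attached and then divide the cell. In the thymus, the double positive (DP) stage begins with a burst of division in blast cells and ends in small resting cells, so that the output of mitotic genes in a DP preparation reflects both how many cells cycle and how active each gene is. In bulk libraries, fewer cycling cells and less RNA per cell cannot be told apart.

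The libraries were made by TTchem-seq, in which cells take up 4-thiouridine for a short time and the RNA that carries it is pulled out and sequenced. The methods describe depletion of rRNA from the labelled RNA, whereas the extract protocol in the labels describes capture of poly(A) RNA. Which of them applied to these libraries is not stated, and how much of the signal is newly made RNA was not tested. There were 2 libraries from wild-type DP thymocytes (WT, genotype Tox4;F/F) and 2 from conditional knockout DP thymocytes (cKO, genotype Tox4;F/F;Lck+), so that the mice of both groups carried floxed Tox4 alleles, on a C57BL/6 background. Exons 4 to 6 of Tox4 are floxed, Cre is driven by the proximal Lck promoter and acts from the DN3 stage on, and the mice were described as sex-matched littermates 6 to 8 weeks old. The methods name a bead kit against CD4 for the DP cells of other assays, which would also bind CD4 single positive cells, and do not state how the DP cells of these libraries were obtained. The cells spent 0.5 h in fresh medium before labelling, and nothing states which libraries came from which mice, so p-values measure the spread between these libraries.

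Several facts about the libraries bear on all that follows. The table held between 38429786 and 48690591 fragments per library, and a mitotic gene had a median of 626 to 1188 fragments in a library and at least 81. Tox4 itself had 74.0 and 70.3 CPM in WT 1 and WT 2 against 59.3 and 57.2 CPM in the cKO libraries, a log2 fold change of -0.31 ± 0.10 (SE), and an adjusted p of 0.0453 in DESeq2, 0.153 in edgeR and 0.143 in limma voom. Fragments were counted over the whole gene, and the part that came from the floxed exons was not measured. WT 1 stood apart: the X-inactivation transcript Xist was at 172 CPM there and at most 2.36 CPM in the other 3 libraries. The sum of 4 Y-linked genes was 1.55 CPM there and 267 to 310 CPM in the others. In these sex-linked transcripts WT 1 did not match WT 2 or the cKO libraries, although the mice were described as sex-matched. The 10 DP markers were all present and summed to 5290 and 5879 CPM in WT 1 and WT 2. In cKO 1 and cKO 2 they summed to 5705 and 5308 CPM. Of the 10, 9 were lower in WT 1 than in WT 2. DESeq2 called 2 of the 10 lower in cKO, Cd8a and Rag1, and 0 higher, beside 1.57% and 2.14% of all genes. The adjusted p of Cd8a and Rag1 were 1.21e-05 and 0.0499 in DESeq2. The 10 markers of mature single positive cells summed to 468 to 552 CPM. The 8 markers of double negative cells summed to 99.1 and 97.2 CPM in WT and 114 and 110 CPM in cKO, of which the cytokine receptor gene Il7r made up 62.0 and 61.7 CPM in WT and 83.1 and 75.8 CPM in cKO. Without Il7r the order turned, with 37.1 and 35.5 CPM in WT and 31.3 and 34.1 CPM in cKO. The 8 markers of B cells summed to 18.2 to 26.2 CPM, the 9 of myeloid cells to 13.7 to 17.7 CPM and the 10 of erythroid cells to at most 0.931 CPM. The 8 markers of thymic epithelial cells summed to 31.8 and 35.3 CPM in WT and 37.4 and 41.2 CPM in cKO, of which the chemokine gene Ccl25 made up 30.9 to 40.4 CPM, while Krt14 and Psmb11 had no fragment in any library and Foxn1 was at most 0.0260 CPM. The part of these differences in the levels of mitotic genes was not tested.

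The promoters of these genes share sequence that their choice did not use. A selection is printed here because the results turn on these genes: Cdk1 is the central mitotic kinase, Ccnb2 and Cenpf had larger differences between the WT libraries than the median of the 50 genes, Kif11 and Kif15 were the genes called between genotypes, and Bub3 was among the few that did not follow the rest. Each window runs 5′ to 3′ from 250 bases before to 50 bases after the start site in RefSeq for GRCm38.p6, on the strand given, and capitals mark every CHR (TTTGAA or TTCGAA) and every CCAAT on either strand, the reverse of which reads TTCAAA and ATTGG.
Cdk1, chr10:69352863-69353162 (-): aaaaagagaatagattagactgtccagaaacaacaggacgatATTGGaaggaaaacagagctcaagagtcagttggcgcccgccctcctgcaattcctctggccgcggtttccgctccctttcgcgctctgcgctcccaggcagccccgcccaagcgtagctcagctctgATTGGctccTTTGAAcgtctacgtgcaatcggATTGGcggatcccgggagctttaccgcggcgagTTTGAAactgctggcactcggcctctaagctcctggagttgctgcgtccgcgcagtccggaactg
Ccnb2, chr9:70421505-70421804 (-): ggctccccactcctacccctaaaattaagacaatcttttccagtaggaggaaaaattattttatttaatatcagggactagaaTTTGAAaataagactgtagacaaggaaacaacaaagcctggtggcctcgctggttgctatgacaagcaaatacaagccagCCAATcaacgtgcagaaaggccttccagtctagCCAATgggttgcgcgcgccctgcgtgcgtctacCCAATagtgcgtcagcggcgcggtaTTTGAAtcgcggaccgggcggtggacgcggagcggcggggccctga
Cenpf, chr1:189688037-189688336 (-): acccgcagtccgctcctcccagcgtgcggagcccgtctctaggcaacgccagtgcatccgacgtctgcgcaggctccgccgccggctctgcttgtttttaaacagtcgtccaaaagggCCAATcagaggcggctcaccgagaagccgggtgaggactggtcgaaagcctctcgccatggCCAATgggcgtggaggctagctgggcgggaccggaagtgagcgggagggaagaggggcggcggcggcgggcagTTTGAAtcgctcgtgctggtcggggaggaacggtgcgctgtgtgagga
Kif11, chr19:37376132-37376431 (+): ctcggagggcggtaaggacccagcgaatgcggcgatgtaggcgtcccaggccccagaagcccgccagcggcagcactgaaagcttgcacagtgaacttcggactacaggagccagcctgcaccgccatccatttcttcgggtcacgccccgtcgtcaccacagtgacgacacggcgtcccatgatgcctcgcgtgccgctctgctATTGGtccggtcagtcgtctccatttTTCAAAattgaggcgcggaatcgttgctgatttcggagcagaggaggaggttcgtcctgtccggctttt
Kif15, chr9:122950831-122951130 (+): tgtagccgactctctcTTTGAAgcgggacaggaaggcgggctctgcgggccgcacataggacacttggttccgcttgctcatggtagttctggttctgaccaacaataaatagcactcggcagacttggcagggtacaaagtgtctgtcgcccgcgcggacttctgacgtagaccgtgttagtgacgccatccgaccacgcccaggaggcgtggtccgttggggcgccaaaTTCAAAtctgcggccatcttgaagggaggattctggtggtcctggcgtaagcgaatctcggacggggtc
Bub3, chr7:131560120-131560419 (+): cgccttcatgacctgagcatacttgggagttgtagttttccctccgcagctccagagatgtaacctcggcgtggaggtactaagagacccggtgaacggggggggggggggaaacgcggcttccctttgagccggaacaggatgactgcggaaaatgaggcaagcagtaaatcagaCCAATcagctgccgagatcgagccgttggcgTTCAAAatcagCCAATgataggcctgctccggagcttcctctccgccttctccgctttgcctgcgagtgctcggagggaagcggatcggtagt
The Cdk1 window held 2 CHR matches, the nearer of them 15 bases before the start site, and 3 CCAAT matches. Ccnb2 held 3 CCAAT matches at 87, 54 and 21 bases before the start site, ahead of a CHR just behind it. Kif15 held 2 CHR matches and no CCAAT.

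RefSeq windows were at hand for 41 of the 50 genes. A CHR was found in 33 of them (80.5%), against 17.4% of the 18296 windows of all genes in the table. A CCAAT was found in 32 (78.0%) against 39.1%, both motifs in 29 (70.7%) against 7.26%, and at least 2 CCAAT matches in 22 (53.7%) against 13.1%. Among genes with a mean of at least 1 CPM the shares were 13.8%, 39.7%, 6.27% and 15.7%. The motifs can share bases where they meet, which was the case in 2 of the 41 windows, and a match of so few letters is a description of the window and not of a bound site. The windows of Birc5, Mad2l1, Ncaph, Nuf2 and Pttg1 held neither motif. The median difference between the WT libraries, WT 1 minus WT 2 in log2(CPM + 0.5), was -0.73 over the 33 genes with a CHR in the window and -0.71 over the 8 without.

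The output of mitotic genes spanned a wide range. Compared per kb of counted length, the condensin subunit gene Smc4 was highest at 20.0 CPM per kb, followed by Mki67 at 6.54, Ncapd2 at 5.16, Cenpa at 4.82, Bub3 at 4.65 and Cdc20 at 4.41 CPM per kb. The checkpoint kinase gene Ttk was lowest at 0.167 CPM per kb. The median of the 50 genes was 1.17 CPM per kb, close to the 1.46 CPM per kb of all genes past the filter.

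**Figure D1:**
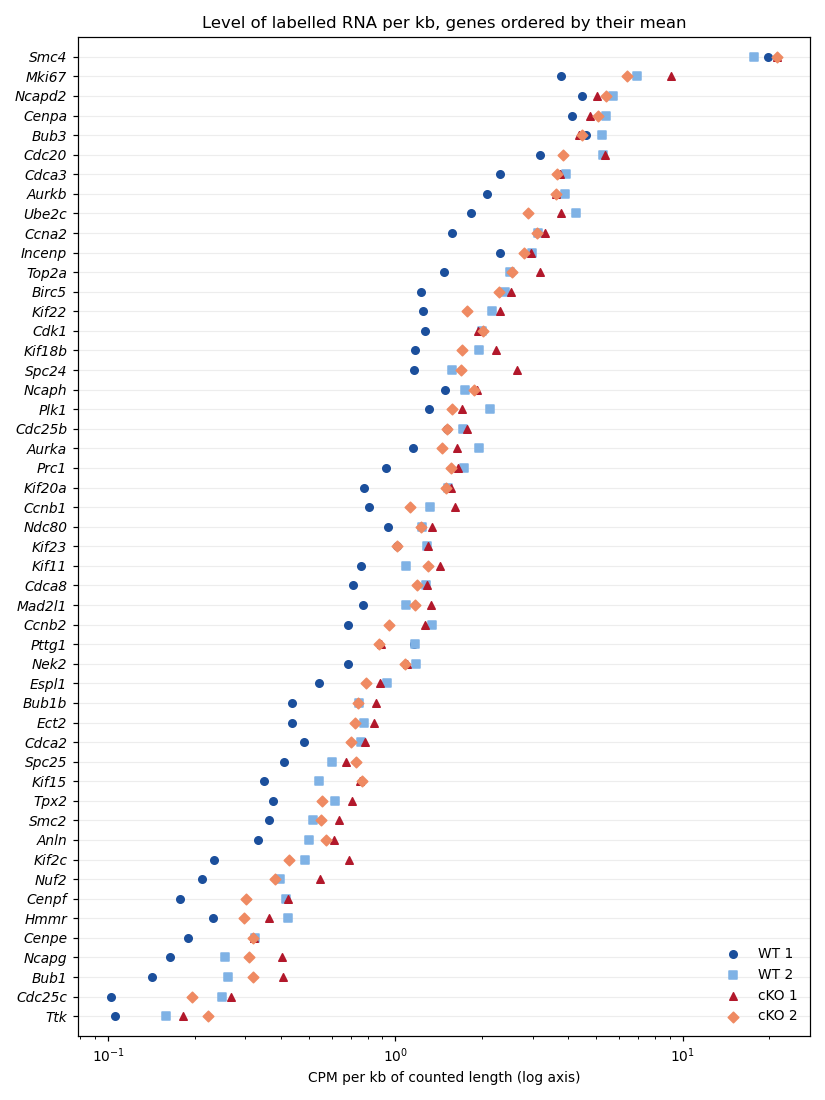
Output of the 50 G2/M and mitosis genes per kb of counted length (log axis, CPM per kb), with 1 point for each library and genes ordered by their mean over the 4 libraries. Smc4 lies apart at 20.0 CPM per kb, and WT 1 is the leftmost point for most genes.

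For 42 of the 50 genes, the log2 difference between the WT libraries was larger in size than the log2 fold change between genotypes, against 45.7% of all genes. WT 1 was the lowest of the 4 libraries for 46 of the 50 genes, against 27.8% of all genes past the filter, and it was lower than WT 2 by at least 1.2-fold for 45 of 50, against 11.7%. Folds between single libraries were taken on CPM + 0.5, which makes them slightly smaller than on CPM. The median difference in log2(CPM + 0.5), WT 1 minus WT 2, was -0.72 over the 50 genes and 0.00 over all genes. The exceptions were Bub3, lowest in cKO 1, Pttg1 and Kif23, lowest in cKO 2, and Smc4, lowest in WT 2. WT 2 was highest for 16 genes, cKO 1 for 30, cKO 2 for 4 and WT 1 for 0. Between the cKO libraries the spread was smaller, with a median difference of 0.16 (cKO 1 minus cKO 2), and 18 of 50 genes were lower in cKO 2 than in cKO 1 by at least 1.2-fold, against 11.7% of all genes.

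**Figure D2:**
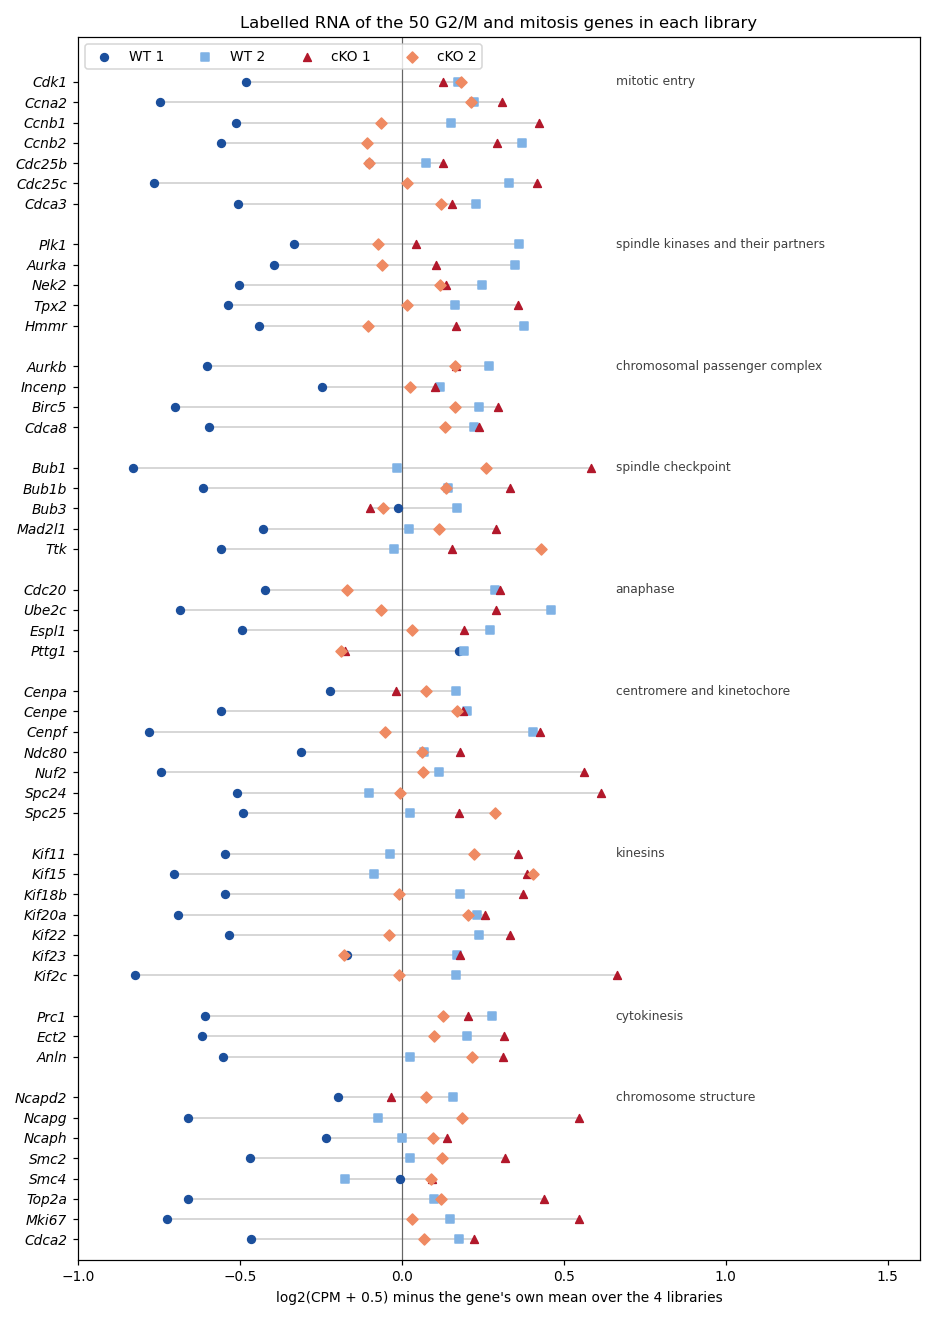
Each of the 50 genes in each library as log2(CPM + 0.5) minus the gene's own mean over the 4 libraries (x axis, log2 units), grouped by role, with a grey line from the lowest to the highest library. WT 1 is at the left for 46 genes, while WT 2, cKO 1 and cKO 2 lie to its right and change places from gene to gene.

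The summed output of the 50 genes was 1602 CPM in WT 1, 2080 in WT 2, 2317 in cKO 1 and 2103 in cKO 2. Smc4 made up a large part of these sums, and without it they were 1009, 1553, 1682 and 1470 CPM. With or without Smc4, WT 1 was lowest, and without it WT 2 came between the cKO libraries. Against WT 2, the median difference of the 50 genes was 0.07 in cKO 1 and -0.10 in cKO 2, whereas against WT 1 it was 0.80 and 0.62. Both cKO libraries exceeded WT 1 by at least 1.2-fold for 41 genes, against 11.4% of all genes, but exceeded WT 2 by as much for Bub1, Kif15 and Smc4, 3 of 50 against 7.13% of all genes. Without the added 0.5 the first count was 43 (12.1% of all genes), with Plk1 and Cdc20 added, and the second was 4 (7.98%), with Ncapg added. Both cKO libraries were lower than WT 2 by as much for Plk1 and Pttg1, 2 of 50 against 5.37%.

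**Figure D3:**
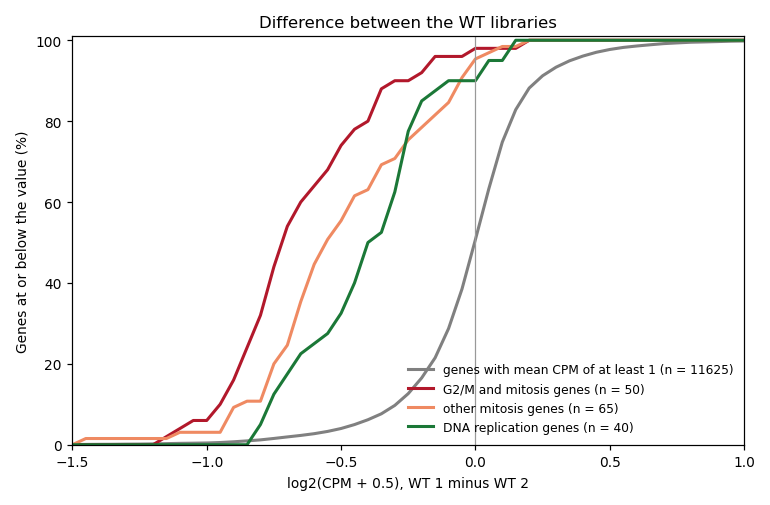
Cumulative share of genes (y axis, %) by their difference between the WT libraries (x axis, log2(CPM + 0.5), WT 1 minus WT 2) for the 50 G2/M and mitosis genes, 65 other mitosis genes, 40 DNA replication genes and all 11625 genes past the filter. The curve of the 50 genes has its middle at -0.72 and lies left of the curve of all genes, which has its middle at 0.00.

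Between genotypes, DESeq2 called 2 of the 50 genes higher in cKO, Kif11 and Kif15, and 0 lower, at an adjusted p under 0.05 and a fold change of at least 1.2. Over all genes, 2.14% were called higher and 1.57% lower. edgeR called 0 in either direction, against 0.413% and 0.086% of all genes. At an unadjusted p under 0.05, 10 genes were higher and 0 lower in DESeq2 (7.2% and 6.31% of all genes), and 9 were higher and 1 lower in edgeR (8.26% and 7.32%). The median log2 fold change was 0.30 over the 50 genes and 0.00 over all genes, and 45 of the 50 values were above 0.

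Those numbers turned on WT 1. Without it, DESeq2 called 0 genes higher (0.972% of all genes) and 0 lower (0.611%), with 3 higher and 0 lower at an unadjusted p under 0.05 (3.54% and 3.27%), the median log2 fold change was -0.02, and 22 of 50 values were above 0. Without WT 2, it called 24 higher (2.75% of all genes) and 0 lower (1.08%), the median was 0.76, and 48 values were above 0. edgeR called 1 gene higher without WT 1, Kif15 (1.96% of all genes), and 35 without WT 2 (4.77%). DESeq2 called 0 genes higher without cKO 1 (0.671% of all genes) and 0 without cKO 2 (0.525%), with 1 and 7 higher at an unadjusted p under 0.05 (2.89% and 3.58%). In each of these fits the group left with a single library was assumed to vary like the other.

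**Figure D4:**
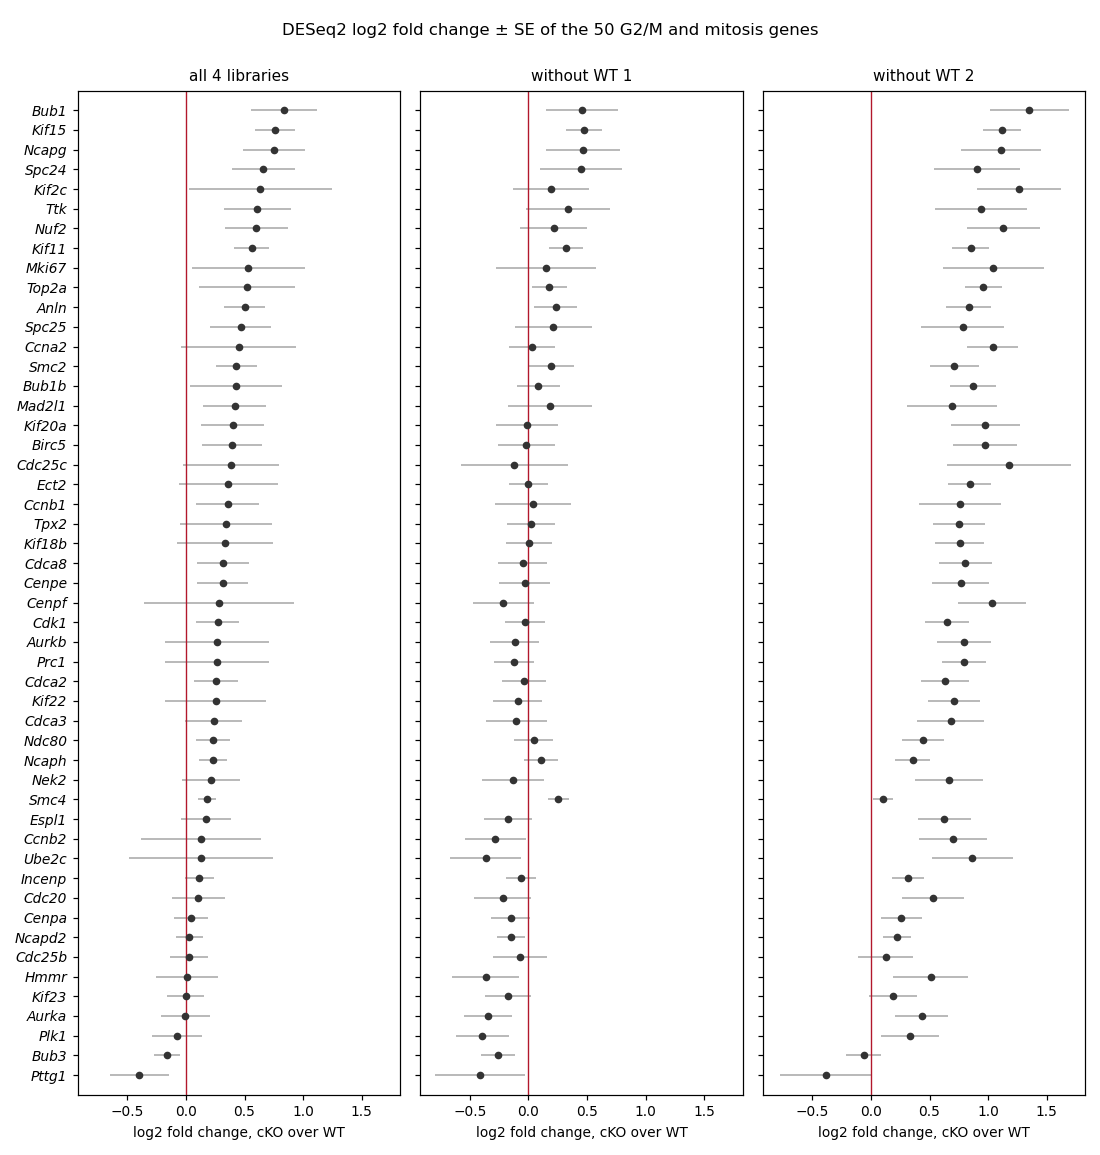
DESeq2 log2 fold change of cKO over WT with its SE (x axis) for the 50 genes, fitted with all 4 libraries, without WT 1 and without WT 2, in the order of the first fit. The median moves from 0.30 to -0.02 without WT 1 and to 0.76 without WT 2.

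For most of the genes the genotypes overlapped. For 13 of the 50 genes each cKO library exceeded each WT library (Bub1, Mad2l1, Ttk, Spc24, Spc25, Kif11, Kif15, Anln, Ncapg, Ncaph, Smc2, Smc4 and Top2a), against 24.9% of all genes, and each was below both WT libraries for Bub3 and Pttg1, 2 of 50 against 24%. The first share, 26% of the 50 genes, is near that of all genes. By role, 5 of the 8 chromosome structure genes and 3 of the 5 spindle checkpoint genes were among the 13, and 0 of the 7 genes of mitotic entry, 0 of the 5 spindle kinases and partners, 0 of the 4 chromosomal passenger genes and 0 of the 4 anaphase genes.

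Cyclins, Cdk1 and the phosphatases that activate it start mitosis. Cdk1, the mitotic kinase (minus strand of chr10:69335146-69352912 in GRCm38), was at 22.5 and 35.7 CPM in WT 1 and WT 2 and at 34.5 and 35.8 CPM in cKO 1 and cKO 2. WT 1 alone was low, and WT 2 lay within the cKO range. The log2 fold change was 0.27 ± 0.18 (SE) with an adjusted p of 0.559 in DESeq2, and -0.03 ± 0.17 without WT 1. Ccna2, the cyclin of S and G2 phase, was at 12.8 and 25.5 CPM in WT and 27.2 and 25.4 CPM in cKO, and 863 bases of its interval overlap Exosc9 on the other strand. Ccnb1 and Ccnb2 encode the B cyclins that carry Cdk1 into mitosis: Ccnb1 was at 6.26 and 10.2 CPM in WT and 12.4 and 8.73 CPM in cKO, and Ccnb2 at 9.48 and 18.5 CPM in WT and 17.5 and 13.2 CPM in cKO. For all 3 cyclin genes WT 1 was lowest and WT 2 was within or above the cKO range. Of the Cdk1-activating phosphatase genes, Cdc25b varied little, at 17.5 and 19.8 CPM in WT and 20.6 and 17.5 CPM in cKO, whereas Cdc25c was at 1.90 and 4.62 CPM in WT and 4.94 and 3.62 CPM in cKO. The Cdc25c difference between the WT libraries, -1.09 on the log2 scale, was the third largest of the 50.

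Among spindle kinases and their partners, WT 2 rather than a cKO library tended to be highest. Plk1, a kinase of centrosome maturation and mitotic exit, was at 13.7 and 22.4 CPM in WT and 17.9 and 16.4 CPM in cKO. Aurka, the centrosomal Aurora kinase, was at 16.5 and 28.0 CPM in WT and 23.6 and 21.0 CPM in cKO. In both cases the cKO libraries lay between the WT libraries, and the log2 fold changes were -0.08 ± 0.21 and -0.01 ± 0.21 (SE), with adjusted p of 0.937 and 0.995 in DESeq2. Without WT 1 they were -0.39 ± 0.23 and -0.34 ± 0.21, and without WT 2 they were 0.33 ± 0.25 and 0.43 ± 0.23. Tpx2, which activates Aurka on spindle microtubules, was at 17.8 and 29.2 CPM in WT and 33.5 and 26.3 CPM in cKO. Nek2 and Hmmr, the other members of the group, were highest in WT 2. Over the 5 genes the middle log2 fold change was 0.01, with -0.34 without WT 1 and 0.51 without WT 2.

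The chromosomal passenger complex corrects faulty attachments of chromosomes to the spindle. Its kinase gene Aurkb was at 12.6 and 23.5 CPM in WT and at 21.8 CPM in both cKO libraries. Birc5, which encodes the subunit survivin, was at 7.96 and 15.7 CPM in WT and 16.4 and 14.9 CPM in cKO. The scaffold gene Incenp had a smaller relative spread, with 63.2 and 81.4 CPM in WT and 80.6 and 76.3 CPM in cKO. All 4 genes of the complex, Cdca8 included, were lowest in WT 1, and without WT 1 their log2 fold changes lay between -0.12 and -0.02.

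The spindle checkpoint delays anaphase while a kinetochore is unattached. Bub1, a checkpoint kinase (minus strand of chr2:127800200-127831859), was at 4.50 and 8.30 CPM in WT and 12.8 and 10.1 CPM in cKO. The groups did not overlap, yet the WT libraries differed by 1.84-fold. The log2 fold change of 0.84 ± 0.28 (SE) was the largest of the 50 and had an adjusted p of 0.0651 in DESeq2 and 0.269 in edgeR. Without WT 1 it was 0.46 ± 0.31 with an adjusted p of 0.939 in DESeq2. Mad2l1, an inhibitor of the anaphase-promoting complex, was at 4.55 and 6.41 CPM in WT and 7.81 and 6.87 CPM in cKO. Bub3, which brings Bub1 and its relative Bub1b to kinetochores, went another way, with 53.0 and 60.2 CPM in WT and 49.96 and 51.3 CPM in cKO. Both its cKO libraries lay below both WT libraries, and its log2 fold change was -0.16 ± 0.11 with an adjusted p of 0.575 in DESeq2, beside a log2 difference of -0.18 between the WT libraries.

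Anaphase begins when the anaphase-promoting complex marks securin and cyclin B for degradation. Its activator gene Cdc20 was at 14.1 and 23.5 CPM in WT and 23.7 and 17.0 CPM in cKO, and Ube2c, its ubiquitin-conjugating enzyme gene, at 5.44 and 12.6 CPM in WT and 11.2 and 8.63 CPM in cKO. For both genes WT 1 was lowest and cKO 2 the next lowest. Pttg1, which encodes securin, was nearly equal within each genotype, at 6.94 and 7.02 CPM in WT and 5.33 and 5.28 CPM in cKO. The groups did not overlap, and the log2 fold change was -0.40 ± 0.25 (SE) with an adjusted p of 0.521 in DESeq2 and 0.339 in edgeR. Few fragments stand behind these Pttg1 values, 205 in cKO 1 and 210 in cKO 2.

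Kinetochores tie centromeres to the spindle. Cenpf, a large outer kinetochore protein, had the largest difference between the WT libraries among the 50, -1.18 on the log2 scale, with 8.42 and 19.8 CPM in WT and 20.1 and 14.3 CPM in cKO. Cenpe, the kinetochore motor, was at 11.5 and 19.8 CPM in WT and 19.7 and 19.4 CPM in cKO, with WT 2 and the cKO libraries nearly level. Ndc80, of the complex that grips microtubule ends, was at 29.1 and 37.9 CPM in WT and 41.1 and 37.8 CPM in cKO. The other genes of that complex were Nuf2, Spc24 and Spc25, and for Spc24 and Spc25 both cKO libraries exceeded both WT libraries, with adjusted p of 0.174 and 0.422 in DESeq2.

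The kinesin genes gave the 2 calls. Kif11 encodes the bipolar kinesin that pushes spindle poles apart, and lies on the plus strand of chr19:37376382-37421863. It was at 34.6 and 49.5 CPM in WT and 65.2 and 59.2 CPM in cKO. Each cKO library exceeded each WT library, and the log2 fold change was 0.56 ± 0.15 (SE) with an adjusted p of 0.00818 in DESeq2 and 0.211 in edgeR. Kif15, whose motor can stand in for that of Kif11 in keeping the spindle bipolar, lies on the plus strand of chr9:122951081-123018733. It was at 23.6 and 36.6 CPM in WT and 50.9 and 51.6 CPM in cKO. The cKO libraries were nearly level and above both WT libraries, and the log2 fold change was 0.76 ± 0.17 with an adjusted p of 0.000541 in DESeq2 and 0.159 in edgeR.

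Both calls changed with the libraries and the tool used. Without WT 2, the log2 fold change was 0.85 ± 0.15 for Kif11 and 1.12 ± 0.17 for Kif15, each larger than with all 4 libraries. Without WT 1, the log2 fold change of Kif11 was 0.32 ± 0.15 with an adjusted p of 0.521 in DESeq2 and 0.204 in edgeR, and that of Kif15 was 0.47 ± 0.16 with 0.0985 in DESeq2 and 0.0217 in edgeR. Without cKO 1 or cKO 2, neither was called by DESeq2, although the log2 fold changes stayed at 0.50 ± 0.22 and 0.62 ± 0.21 for Kif11 (adjusted p of 0.507 and 0.211) and at 0.78 ± 0.55 and 0.75 ± 0.54 for Kif15 (adjusted p of 0.9995 and 0.973), with larger standard errors than in the fit with all 4 libraries. Kif20a, a kinesin of late mitosis, was at 6.73 and 13.2 CPM in WT and 13.5 and 13.0 CPM in cKO, so that only WT 1 stood apart. Its interval overlaps Cdc23 and Brd8 on the other strand by 1595 and 240 bases. For Kif18b, Kif22 and Kif2c WT 2 lay between the cKO libraries, and Kif23 was lowest in cKO 2 and highest in cKO 1.

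Cytokinesis splits the cell after the chromosomes part. Ect2, the exchange factor that turns on RhoA at the cleavage furrow, was at 24.7 and 43.9 CPM in WT and 47.6 and 40.9 CPM in cKO, so that WT 2 lay between the cKO libraries. Prc1, which bundles the microtubules of the midzone, was highest in WT 2. Anln, the scaffold of the contractile ring, was higher in both cKO libraries than in both WT libraries, its log2 fold change being 0.50 ± 0.18 (SE) at an adjusted p of 0.0833 in DESeq2, or 0.23 ± 0.18 at an adjusted p of 0.998 without WT 1.

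Genes of chromosome structure held the 3 highest outputs per kb. Smc4, the condensin ATPase gene on the plus strand of chr3:69004738-69034623, was at 593 and 527 CPM in WT and 635 and 634 CPM in cKO. It was the only gene of the 50 that was higher in WT 1 than in WT 2, and each cKO library exceeded each WT library. The log2 fold change was 0.18 ± 0.08 (SE) with an adjusted p of 0.219 in DESeq2, and 0.26 ± 0.09 without WT 1, with an adjusted p of 0.122 in DESeq2 and 0.0154 in edgeR, short of the 1.2-fold criterion. Smc2, which pairs with Smc4 in condensin, had an output of 0.516 CPM per kb, with WT 1 lowest. Ncapd2, another condensin subunit gene, was at 105 and 135 CPM in WT and 118 and 127 CPM in cKO, with the cKO libraries between the WT libraries. Top2a, which encodes the topoisomerase that untangles sister chromatids, was at 45.9 and 78.2 CPM in WT and 99.1 and 79.4 CPM in cKO. Mki67, the proliferation marker that coats mitotic chromosomes, was at 100.03 and 184 CPM in WT and 242 and 169 CPM in cKO. WT 2 was below both cKO libraries for Top2a, and between them for Mki67, and the adjusted p were 0.648 and 0.725 in DESeq2. Of the other members, Ncapg overlaps Lcorl, a gene at 192 CPM on the other strand, by 3364 bases, and whether strand was used in counting is not stated for the table.

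By role, the median log2 fold change without WT 1 was 0.18 for the 5 checkpoint genes, 0.16 for the 8 chromosome structure genes, 0.05 for the 7 kinetochore genes, 0.00 for the 7 kinesins and the 3 cytokinesis genes, -0.06 for the 4 passenger genes, -0.07 for the 7 genes of mitotic entry, -0.29 for the 4 anaphase genes and -0.34 for the 5 spindle kinases and partners. With all 4 libraries, the group medians ran from 0.01 for spindle kinases and partners to 0.43 for checkpoint genes. Without WT 2 they ran from 0.51 to 0.87, with the same groups at the ends. Medians without WT 1 or without WT 2 rest on a single WT library, and no median has a test. Across the 50 genes, a longer counted length went with a higher log2 fold change without WT 1 (Spearman's rho = 0.42), as it did across all genes past the filter (rho = 0.25). The points share the same 3 libraries, and genes are not independent replicates.

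Of 65 other mitosis genes, listed from the same pathway with earlier results of these data known, DESeq2 called 4 higher in cKO (Mybl2, Zwilch, Cenpk and Kif4) and 0 lower, again beside 2.14% and 1.57% of all genes. Mybl2, which encodes B-Myb, was at 23.9 and 34.3 CPM in WT and 44.7 and 39.2 CPM in cKO, its log2 fold change being 0.52 ± 0.16 (SE) at an adjusted p of 0.0375 in DESeq2 and 0.260 in edgeR. The log2 fold change of Mybl2 was 0.28 in the DESeq2 fit without WT 1. The 65 genes had a middle log2 fold change of 0.35 with all 4 libraries, against 0.00 for all genes. Their middle value was 0.13 without WT 1 and 0.74 without WT 2, against -0.01 and 0.01 for all genes. It was 0.26 without cKO 1 and 0.44 without cKO 2, against 0.00 for all genes in both fits. Foxm1, the partner of B-Myb in G2 transcription, was at 24.4 and 46.6 CPM in WT and 45.7 and 39.9 CPM in cKO, with an adjusted p of 0.885 in DESeq2. Mybl2 was higher in each cKO library than in either WT library, while Foxm1 had WT 2 highest. The median difference between the WT libraries was -0.55 over the 65 genes, and WT 1 was lowest for 58 of them. The genotypes did not overlap, with cKO higher, for 38 of 65, against 24.9% of all genes.

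Of 40 DNA replication genes, which act in S phase ahead of mitosis, 7 were called higher in cKO by DESeq2 (Cdc6, Cdc45, Pola1, Prim2, Rrm1, Chaf1b and Dtl) and 0 lower, beside 2.14% and 1.57% of all genes. Their median difference between the WT libraries was -0.39, and WT 1 was lowest for 36 of the 40. The genotypes did not overlap, with cKO higher, for 33 of 40, against 24.9% of all genes and 13 of the 50 G2/M and mitosis genes. Pola1, which encodes the catalytic subunit of DNA polymerase alpha, was at 60.4 and 76.2 CPM in WT and 109 and 107 CPM in cKO, and it was the only 1 of the 7 still called without WT 1, with an adjusted p of 0.00560 in DESeq2. edgeR called 0 of the 65 and 0 of the 40 with all 4 libraries, and 21 and 20 of them were higher at an unadjusted p under 0.05, beside 8.26% of all genes. The difference between these lists and the 50 genes was not tested.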

How the data were processed

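TTchem-seq libraries of DP thymocytes were assigned to WT and cKO by their titles, 2 libraries each. The submitters' processing notes name fastp 0.13.1, STAR 2.7.9a, featureCounts 1.6.1 and the build mm10 without their roles, and the methods describe filtering with fastp, alignment with STAR and a gene count matrix made from the STAR output. The deposited table held expected counts (fragments per gene), of which 8.61% were fractional. For all 50 genes the deposited length, in bp, equalled the union of transcript spans, so introns were counted, and whether this is the matrix that the methods describe is not stated. Per the authors' methods, spike-in RNA was added but not used for scaling, and without molecular identifiers the fragments cannot be taken as separate molecules.

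Here counts were rounded, and CPM were computed from table totals. With the test and thresholds that the methods name, genotypes were compared over all genes by the DESeq2 1.42.0 Wald test with default size factors and no covariate, with Benjamini-Hochberg adjustment. Calls were made at an adjusted p under 0.05 in genes averaging at least 1 CPM, where the fold change reached 1.2. Alternatives were edgeR 4.0.16 (quasi-likelihood), limma 3.58.1 (voom), other scaling factors and filters, the replicate number as a block, and fits without each library. The procedures were tested on simulated data. The WT libraries differed by a chi-square of 40.7 per degree of freedom and the cKO libraries by 30.7, so neither pair held the same library under both numbers, which does not show that they came from separate mice. Promoter windows came from RefSeq (GRCm38.p6), 1 per gene, the nearest to the counted start. The members and lists were chosen with earlier results of these data known. Named genes were Tox4, 27 members picked for their roles, every called member and the members with the 3 lowest and 3 highest differences between the WT libraries; further members were named by their role group after their values were seen.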

Additional observations from a re-analysis of the deposited data

How the results depend on the processing

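Of the 50 genes, edgeR, limma voom and edgeR with a replicate block called 0 higher in cKO, a fold change of at least 1.5 left 1, and leaving out single libraries gave 0 to 35. No alternative called any of the 50 lower, and in the fits with all 4 libraries their median log2 fold change stayed between 0.29 and 0.37. The median difference between the WT libraries stayed between -0.75 and -0.72 under other scaling factors and a pseudocount of 0.1. The median log2 fold change ran from -0.025 to 0.76 when single libraries were left out. Counts of the 65 other mitosis genes called higher went from 4 to 0 in edgeR, limma voom, edgeR with a replicate block and without independent filtering, to 2 at 1.5-fold, to 1 in DESeq2 with a replicate block, and to 0 to 42 without single libraries, with 0 to 1 called lower. Those of the 40 DNA replication genes went from 7 to 0 in edgeR, limma voom and edgeR with a replicate block, to 4 without independent filtering and in DESeq2 with a replicate block, to 3 at 1.5-fold, and to 1 to 25 without single libraries. Same-numbered libraries did not deviate together (correlation of deviations -0.03). With 2 libraries a group, this cannot show whether the numbers mark pairs. Rn45s held 2.71% of the fragments in WT 1 and 2.44% in cKO 1, against 4.30% in WT 2 and 4.05% in cKO 2. The Tox4 log2 fold change stayed between -0.34 and -0.28 and lost its call in edgeR (-0.31), limma voom (-0.31), DESeq2 with total counts as factors (-0.31), without independent filtering (-0.31), at 1.5-fold (-0.31), with a replicate block in DESeq2 and edgeR (-0.31 in both), and in DESeq2 when any single library was left out (adjusted p of 0.196 to 0.792). When single libraries were left out of DESeq2, the log2 fold change changed sign for 26 of the 50 genes. Over the genes chosen for the alternatives these were Cdk1 (-0.031 to 0.65), Ccnb2 (-0.28 to 0.70), Cdc25b (-0.087 to 0.13), Cdc25c (-0.12 to 1.17), Plk1 (-0.39 to 0.33), Aurka (-0.34 to 0.43), Aurkb (-0.12 to 0.79), Incenp (-0.066 to 0.32), Birc5 (-0.018 to 0.97), Cdc20 (-0.22 to 0.53), Ube2c (-0.36 to 0.87), Cenpe (-0.033 to 0.77), Cenpf (-0.21 to 1.03), Kif20a (-0.013 to 0.98), Ect2 (-0.00049 to 0.84) and Ncapd2 (-0.15 to 0.22). That of Aurka also changed sign in limma voom (0.023) and with a replicate block in DESeq2 (0.041) and edgeR (0.039). The edgeR fits without a WT library, and folds between single libraries without a pseudocount, were added after seeing the data. The cause was not tested. Counting error weighs most on the genes with the fewest fragments, at least 81 in a library, and a p that missed the threshold with 2 libraries a group does not show that a gene was unchanged.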
